A study of Homo sapiens with 12 samples.

Results

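The S100 proteins and the annexins are families of calcium-dependent binding proteins, and 10 of their genes are described here across 12 RNA-seq libraries: S100P, S100A4, S100A6, S100A10, S100A11, S100A14, S100A16, ANXA1, ANXA2 and ANXA3. They were found by gene name in the first of the deposited tables and by gene identifier in the second, and are 10 of the 33 S100 and annexin A genes listed there and of the 50356 genes listed in both tables. They were chosen with their values in these comparisons known, so those values are given as a description. No p is printed for a member, and where a member is said to have passed the threshold used for all genes, or not, this describes it and supports nothing. All 10 passed the filter on low counts in both tables.

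The cells were SW1990, a human line grown from a spleen metastasis of a pancreatic adenocarcinoma, and all 12 libraries came from cells kept for 24 h without glucose. The S371A group expressed rPHGDH with that substitution and shares a deposited table with WT-1, which expressed the wild-type form. The S55A group expressed rPHGDH with that substitution and shares a table with WT-2, again with the wild-type form. PHGDH makes the first step of serine synthesis, and the series asks about another activity of the enzyme, in the nucleus, under nutrient stress. Each group had 3 libraries, and whether these stem from different cultures is not in the labels; p-values given for other genes thus measure only the spread of libraries, which may be technical. The labels do not say how rPHGDH was introduced, whether a group is 1 clone or a pool, or whether the cells' own PHGDH was removed. Each mutant has its own table, called an experiment here, and whether the libraries of a table were sequenced together is not in the labels. What differs between the mutants and what differs between the experiments thus cannot be told apart.

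S100 proteins are small proteins with EF hands, loops that take up calcium and open a surface on which partner proteins dock. Annexins have a conserved core that settles on acidic membranes when calcium rises, and an N-terminal tail that partners bind. The families meet in fixed pairs: S100A10, whose EF hands no longer need calcium, binds annexin A2 at the membrane, and S100A11 binds annexin A1. S100P, S100A4, S100A6 and several annexins are known for high levels in pancreatic ductal carcinoma.

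In S371A cells, ANXA3 and ANXA1 were higher than in WT-1 cells by 1.68-fold and 1.5-fold, while S100P and S100A14 were at 0.616 and 0.668 of their WT-1 levels. In S55A cells, S100P stood at 3.24 times its WT-2 level, ANXA1 at 0.493 and ANXA3 at 0.820 of theirs. S100A14 was there at 1.12 times its WT-2 level and did not pass the threshold. S100P, ANXA1, ANXA3 and S100A14 therefore lay on opposite sides of their wild types in the 2 experiments. The means of S100A10 and S100A11 were higher and that of S100A4 lower than in wild type in both. S100A6, S100A16 and ANXA2 had log2 fold changes between -0.10 and 0.27 in both.

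The 4 genes with opposite directions were picked by their values, and the share of all genes with this order was not computed. Their start-site regions are printed here. They come from RefSeq on GRCh38.p14, run from 250 bases before to 50 after the annotated start, and are written on the gene's own strand, with the letters TATAAA in capitals where a search of both strands found them.
S100P, chr4:6693628-6693927, plus strand: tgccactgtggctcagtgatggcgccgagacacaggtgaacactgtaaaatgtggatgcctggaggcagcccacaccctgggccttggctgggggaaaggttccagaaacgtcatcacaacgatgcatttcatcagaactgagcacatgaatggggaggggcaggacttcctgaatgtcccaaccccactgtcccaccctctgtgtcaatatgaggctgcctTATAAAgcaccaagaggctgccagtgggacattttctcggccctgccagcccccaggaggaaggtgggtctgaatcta
S100A14, chr1:153616276-153616575, minus strand: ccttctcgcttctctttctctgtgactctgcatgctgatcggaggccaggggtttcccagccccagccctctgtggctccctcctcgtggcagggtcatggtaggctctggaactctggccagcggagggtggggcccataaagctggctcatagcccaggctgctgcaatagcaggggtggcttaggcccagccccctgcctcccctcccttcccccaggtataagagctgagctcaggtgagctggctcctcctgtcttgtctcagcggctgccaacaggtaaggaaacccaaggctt
ANXA1, chr9:73151615-73151914, plus strand: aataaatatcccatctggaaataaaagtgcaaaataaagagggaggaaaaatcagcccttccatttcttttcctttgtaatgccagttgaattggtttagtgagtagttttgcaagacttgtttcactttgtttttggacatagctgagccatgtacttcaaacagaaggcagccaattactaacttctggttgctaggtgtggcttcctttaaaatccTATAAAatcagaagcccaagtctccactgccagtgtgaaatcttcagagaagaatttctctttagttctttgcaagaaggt
ANXA3, chr4:78551520-78551819, plus strand: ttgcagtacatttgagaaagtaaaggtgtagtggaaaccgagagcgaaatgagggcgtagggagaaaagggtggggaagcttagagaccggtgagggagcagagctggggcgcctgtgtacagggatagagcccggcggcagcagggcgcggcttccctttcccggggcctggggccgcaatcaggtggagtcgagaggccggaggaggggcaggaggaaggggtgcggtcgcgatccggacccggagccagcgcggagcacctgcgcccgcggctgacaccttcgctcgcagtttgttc

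The 4 windows differ in make-up. The ANXA1 window has a GC content of 37.7% and 0 CG pairs, and the ANXA3 window has 64.7% and 25. The S100P window has 56.0% and 5 CG pairs, and the S100A14 window 62.0% and 5, beside a median of 58.7% and 14 over 35116 human windows of the same length. TATAAA begins 28 bases before the start in S100P and 31 bases before it in ANXA1, S100A4 and ANXA2, and these letters occur in 11.5% of all windows. The AP-1 letters TGANTCA were found in the ANXA2 window only, 127 bases before the start, against 7.71% of all windows. The CRE letters TGACGTCA were found in no member's window and in 1.85% of all. These are matches of letters, not evidence of a bound factor.

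The members lie on 4 chromosomes. S100A10 (chr1:151982915-151994390), S100A11 (chr1:152032506-152047907), S100A6 (chr1:153534599-153536244), S100A4 (chr1:153543613-153550136), S100A16 (chr1:153606886-153613145) and S100A14 (chr1:153614255-153616986) belong to the S100 cluster of chromosome 1. S100P (chr4:6693069-6697170) and ANXA3 (chr4:78551519-78610451) share chromosome 4, ANXA1 is at chr9:73151757-73170393 and ANXA2 at chr15:60347134-60402883. These are the tables' coordinates, the same in both tables and in GENCODE 29 on GRCh38. The neighbours S100A14 and S100A16, both read from the minus strand, did not move alike in S371A, at -0.58 and 0.12 on the log2 scale.

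Library totals ran from 14102906 to 16182355 counts in S371A, 15932980 to 19240270 in WT-1, 18262794 to 19100204 in S55A and 13667033 to 17655119 in WT-2, so 3 counts correspond to between 0.155 and 0.218 CPM, the count as a share of the library's TMM-scaled total, a limit that covers counting error only. The PHGDH counts do not tell endogenous from introduced transcripts. PHGDH was lower in both mutants, at 201 ± 20.7 CPM in S371A against 474 ± 19.6 in WT-1 (SD, n = 3 each). It had 357 ± 9.13 CPM in S55A against 726 ± 17.5 in WT-2. PHGDH has different coordinates in the 2 tables, with lengths behind FPKM of 19533 and 7227 bases, so its levels compare only within a table. Its part in the values below was not tested. Of 12 ductal carcinoma markers, KRT8, KRT18, KRT19, EPCAM, CDH1 and AGR2 were abundant. KRT7, MUC1, CEACAM5, CEACAM6 and TFF1 were scarce, with group means from 0.0483 CPM (CEACAM6 in WT-2) to 4.11 CPM (KRT7 in S55A). CLDN18, an often used marker, was at 0 in 10 libraries. The summed level of the 12 was 5851 to 6798 CPM in S371A, 5077 to 5546 in WT-1, 4761 to 4992 in S55A and 3091 to 3437 in WT-2. Leukocyte markers together reached 9.57 CPM in WT-2 replicate 2 and between 1.06 and 2.43 CPM in the other 11 libraries, with CD3E at 0 in all. That excess lay in S100A8, S100A9 and S100A12, S100 genes that are also leukocyte markers; the 10 other markers summed to 2.39 CPM in WT-2 replicate 2 and to between 0.875 and 2.19 CPM elsewhere.

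**Figure D1:**
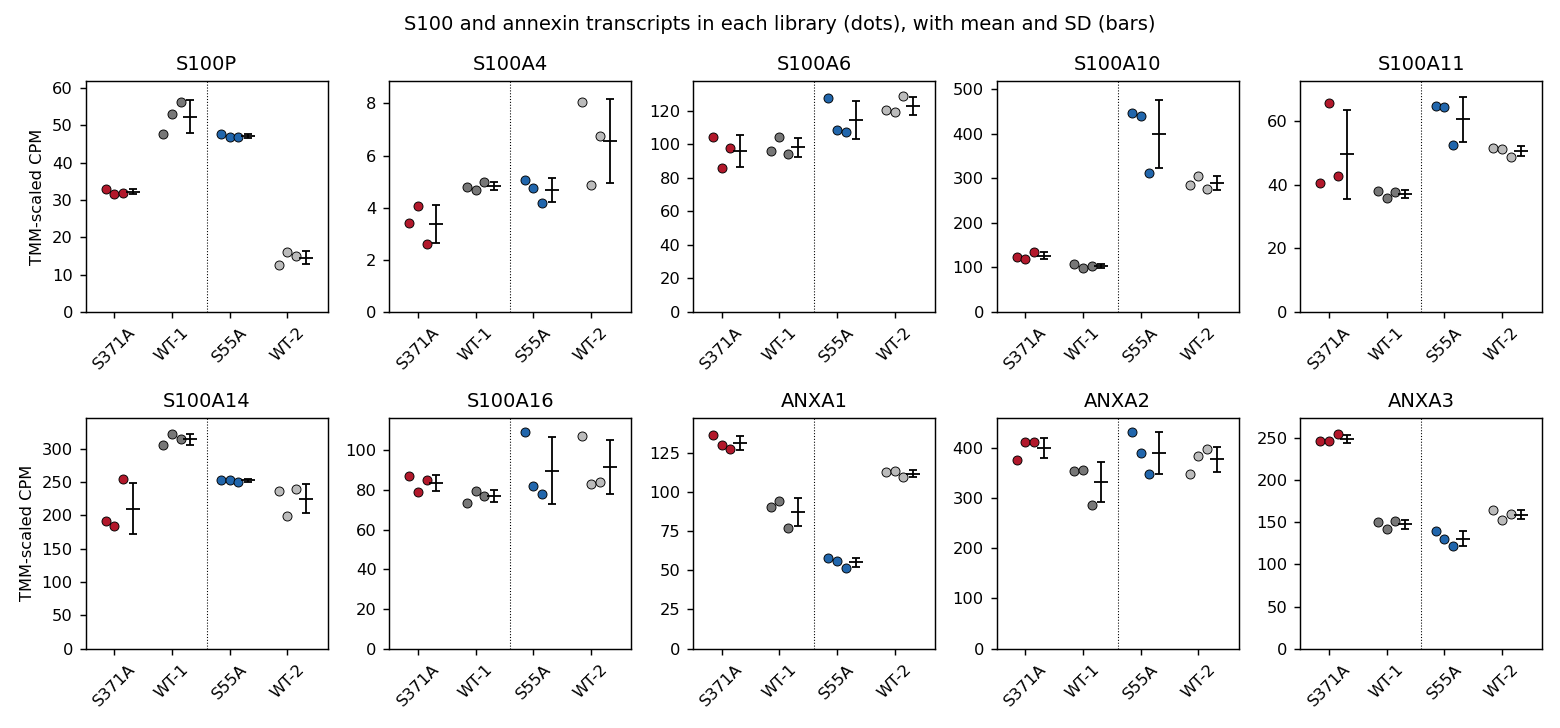
Level of each member in each library. The vertical axes show TMM-scaled CPM from 0, dots are the 3 libraries of a group in replicate order, and the bar beside them is mean ± SD; the dotted line parts the 2 experiments. S100P dots of S371A lie below all WT-1 dots, and those of S55A lie above all WT-2 dots, while the ANXA1 dots do the reverse.

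Among the S100 genes, S100P differed most between the experiments. S100P encodes a placental S100 protein that is secreted and acts on the receptor RAGE, and it binds ezrin inside the cell. It had 33.0, 31.7 and 31.8 CPM in S371A, against 47.5, 52.9 and 56.3 CPM in WT-1. Every S371A library lay below every WT-1 library, and the difference was -0.70 ± 0.07 (log2 fold change ± SE). In the second experiment S100P had 47.6, 46.7 and 46.9 CPM in S55A, against 12.7, 15.95 and 15.1 CPM in WT-2, a log2 fold change of 1.70 ± 0.10. Here the groups were apart in the other direction.

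The S100P levels of the wild types differed too. With all libraries on 1 scale, though from separately counted tables, S100P averaged 14.9 ± 1.74 CPM in WT-2 and 51.1 ± 4.28 CPM in WT-1 (SD, n = 3 each), a log2 difference of -1.78, and 4.29% of 16214 genes with the same coordinates in both tables differed as much. The S55A mean on that scale was 48.1 ± 0.535 CPM. The ductal marker sum, scaled within each experiment, was also lowest in WT-2 and highest in S371A, where S100P was lower than in WT-1. The part of this sum in the S100P values was not tested.

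S100A14, an S100 protein of epithelia, had the highest level per length in WT-1. It had 191, 185 and 254 CPM in S371A, against 306, 322 and 315 CPM in WT-1. All S371A libraries lay below WT-1, with replicate 3 nearest to it, and the log2 fold change was -0.58 ± 0.13. In S55A it had 254, 253 and 250 CPM, against 236, 199 and 239 CPM in WT-2. The S55A libraries were higher and did not overlap with WT-2, by a log2 fold change of 0.17 ± 0.08 that did not pass the threshold and was 0.090 without WT-2 replicate 2.

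S100A10, the light chain that joins annexin A2 in a tetramer, was higher in both mutants. It had 124, 119 and 135 CPM in S371A, against 107, 97.6 and 103 CPM in WT-1, and a log2 fold change of 0.30 ± 0.06. It had 446, 439 and 312 CPM in S55A, against 284, 306 and 275 CPM in WT-2. In both experiments the mutant libraries lay above all of their wild types, S55A replicate 3 only just. The S55A log2 fold change was 0.47 ± 0.14, which did not pass the threshold, and without S55A replicate 3 it was 0.62 and passed.

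S100A10 also had the widest range of the 4 group means, 2.01 on the log2 scale, because it was much higher in the second experiment. On the common scale it averaged 294 ± 16.3 CPM in WT-2 and 100 ± 4.78 CPM in WT-1, a log2 difference of 1.55 that 5.35% of genes matched or exceeded. S100P (1.78) and ANXA1 (1.19) had the next widest ranges.

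S100A11, which binds annexin A1, had 40.4, 65.5 and 42.6 CPM in S371A, against 38.0, 35.7 and 37.6 CPM in WT-1. The groups did not overlap, but S371A replicate 2 stood far above the other libraries, and the log2 fold change of 0.42 ± 0.19 did not pass the threshold; it was 0.16 without that library. S100A11 had 64.6, 64.5 and 52.3 CPM in S55A, against 51.6, 51.2 and 48.8 CPM in WT-2. These too did not overlap, with a log2 fold change of 0.26 ± 0.09 that did not pass either, and 0.36 that did without S55A replicate 3. S371A replicate 2 also stood apart for AHNAK, a large scaffold that binds the S100A10-annexin A2 complex, at 59.6 CPM against 1243 and 1254 CPM in the other S371A libraries; whether this library's other values are affected was not tested.

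S100A4, a binder of non-muscle myosin known from metastasis, was the scarcest member. It had 3.40, 4.08 and 2.62 CPM in S371A, against 4.80, 4.69 and 4.99 CPM in WT-1, and the groups did not overlap. It had 5.08, 4.75 and 4.19 CPM in S55A, against 8.05, 4.86 and 6.76 CPM in WT-2, where WT-2 replicate 2 lay among the S55A libraries. The log2 fold changes of -0.52 ± 0.17 and -0.50 ± 0.20 did not pass the threshold; the second was -0.66 and passed without WT-2 replicate 2, the library with the high S100A8 and S100A9 counts, and was -0.32 without WT-2 replicate 1.

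S100A6, also called calcyclin, and S100A16, a widely expressed family member, had values that overlapped between mutant and wild type in both experiments. S100A6 had 105, 85.7 and 97.8 CPM in S371A, against 96.0, 104 and 94.0 CPM in WT-1. It had 128, 109 and 107 CPM in S55A, against 121, 119 and 129 CPM in WT-2, and its log2 fold changes were -0.03 ± 0.08 and -0.10 ± 0.08. S100A16 had 87.0, 79.0 and 84.9 CPM in S371A, against 73.6, 79.6 and 77.2 CPM in WT-1, and 109, 81.8 and 78.1 CPM in S55A, against 107, 83.1 and 84.3 CPM in WT-2. Its log2 fold changes were 0.12 ± 0.06 and -0.03 ± 0.16, and in both S55A and WT-2 replicate 1 was the high library.

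Among the annexins, ANXA1 showed the clearest opposite values. Its product, annexin A1, is a ligand of formyl peptide receptors and inhibits phospholipase A2. It had 136, 130 and 127 CPM in S371A, against 90.4, 94.4 and 77.2 CPM in WT-1, a log2 fold change of 0.58 ± 0.08. It had 57.6, 55.8 and 51.6 CPM in S55A, against 113, 113 and 109 CPM in WT-2, a log2 fold change of -1.02 ± 0.07. All mutant libraries lay above wild type in the first experiment and below it in the second.

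ANXA3, which binds phospholipids and is known as a placental anticoagulant protein, followed the same order. It had 247, 246 and 254 CPM in S371A, against 151, 142 and 151 CPM in WT-1, a log2 fold change of 0.75 ± 0.04. It had 139, 130 and 122 CPM in S55A, against 164, 153 and 160 CPM in WT-2, and -0.29 ± 0.07. The groups did not overlap in either experiment, and the second difference no longer passed the threshold without S55A replicate 2, WT-2 replicate 1 or WT-2 replicate 3, at values of -0.28, -0.26 and -0.28.

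ANXA2, the heavy chain that binds S100A10 and a surface site for plasminogen, was high in all 12 libraries. It had 376, 411 and 412 CPM in S371A, against 353, 356 and 285 CPM in WT-1. The S371A libraries lay above WT-1, with WT-1 replicate 3 the lowest, and the log2 fold change of 0.27 ± 0.09 did not pass the threshold; it was 0.17 without that library. It had 430, 389 and 346 CPM in S55A, against 348, 383 and 398 CPM in WT-2; these overlapped, at 0.05 ± 0.09. Of the 9726 windows of 50 bases in ANXA2 transcripts, 5.91% also occur in another gene, and 575 of them in the processed pseudogene ANXA2P2. ANXA2P2 had 198 ± 11.1 CPM in S371A and 163 ± 2.54 CPM in WT-1, so its reads and those of ANXA2 cannot be told apart at these windows. With the pseudogene counts added, the S371A value of ANXA2 was 0.28 and passed.

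**Figure D2:**
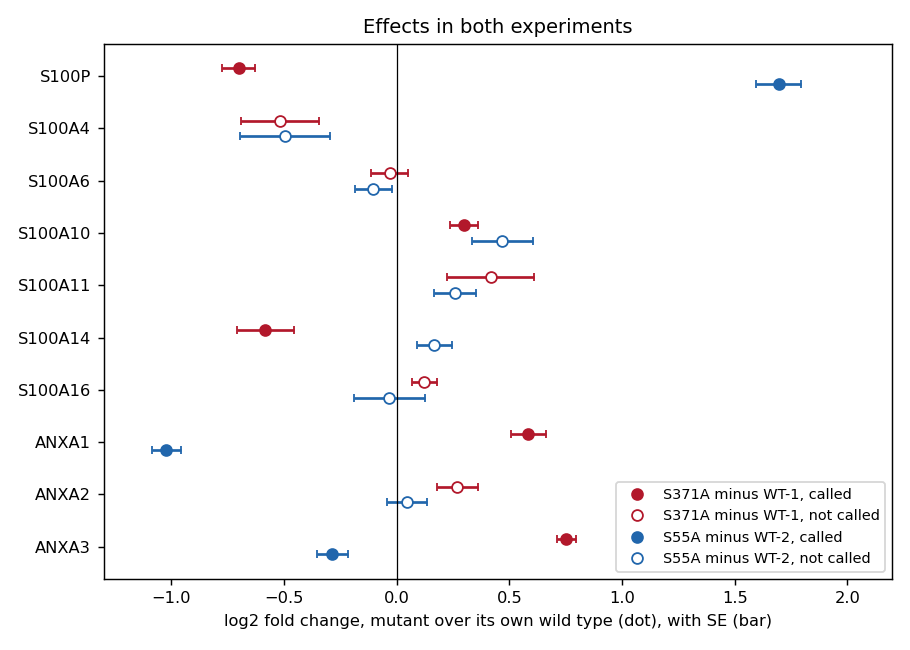
Log2 fold change of each member over its own wild type. Dots are estimates, bars are SE, and filled dots passed the adjusted threshold over all tested genes; S371A is drawn above S55A in each row. S100P (-0.70 and 1.70), ANXA1 (0.58 and -1.02) and ANXA3 (0.75 and -0.29) lie on both sides of 0.

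A gene counted as called when its adjusted p in edgeR's quasi-likelihood test was under 0.05 over all tested genes. In S371A, 5 of the 10 members were called, S100A10, ANXA1 and ANXA3 higher and S100P and S100A14 lower, where 12.6% of 16235 tested genes were called (7.05% higher and 5.53% lower). In S55A, 3 were called, S100P higher and ANXA1 and ANXA3 lower, where 16% of 15521 were called (8.97% higher and 7.06% lower). The balance of all calls depends on the scaling: with upper-quartile factors 990 genes were higher and 1078 lower in S371A, and 1221 and 1258 in S55A, and with no filter 945 and 1038 in S371A. The libraries of mutant and wild type did not overlap for 8 members in S371A, 5 higher and 3 lower, where this held for 36.5% of tested genes (18.2% higher and 18.3% lower). They did not overlap for 6 members in S55A, 4 higher and 2 lower, where it held for 38.2% (19.5% higher and 18.7% lower). Nothing is read from these counts, since the members were chosen on these values. The members' median log2 fold change was 0.20 in S371A and 0.01 in S55A, and that of all tested genes -0.01 in both. The S371A call of S100A10 was lost when any library but S371A replicate 2 was left out (0.25 to 0.33), and that of S100A14 when any but S371A replicate 3 was (-0.60 to -0.50).

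The S371A effect minus the S55A effect, fitted over all 12 libraries, was -2.39 ± 0.12 for S100P, -0.75 ± 0.15 for S100A14, 1.61 ± 0.10 for ANXA1 and 1.04 ± 0.08 for ANXA3. It was between -0.17 and 0.23 for the other 6 members. These differences follow from the values above and were not tested.

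Levels between genes were set side by side in FPKM, the deposited counts divided by the length of the gene and the total of the library. In S371A the order ran from S100A14 (76.6 ± 12.8 FPKM), S100A11 (72.3 ± 20.8), S100A10 (57.0 ± 3.05) and S100A6 (47.2 ± 4.69) to ANXA3, ANXA2, S100A16, ANXA1, S100P and last S100A4 (1.67 ± 0.380; SD, n = 3 each). S100A14 and S100A11 overlapped there, as did S100A11 and S100A10, and S100A16 and ANXA1. In WT-1, S100A14 (116 ± 2.78 FPKM) stood above S100A11 (54.8 ± 1.86), S100A6 and S100A10, of which the last pair overlapped, and S100P (33.0 ± 2.68) had rank 5. In WT-1, ANXA2 and S100A16 overlapped too.

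In the second experiment S100A10 was at the top. It had 180 ± 31.1 FPKM in S55A and 132 ± 7.83 FPKM in WT-2, above S100A14, S100A11 and S100A6 in both groups, and S100A14 and S100A11 overlapped in both. S100P had rank 5 in S55A (29.3 ± 0.525 FPKM), overlapping ANXA2, which overlapped S100A16, and rank 9 in WT-2 (9.19 ± 1.08 FPKM). In WT-2 S100A16 overlapped ANXA2, and ANXA3 overlapped ANXA1. S100A4 was last in every group. The highest annexin ranked 5 in S371A and 6 in each of the other groups. The order depends on the length used. The FPKM of S100A6 rests on 2019 bases, where its merged exons in GENCODE 29 have 971. With merged exons S100A6 moved up to rank 2 in S371A and WT-1 and rank 3 in S55A and WT-2. S100A11 then fell to rank 4 and S100A16 had rank 5 in every group. The overlap of S100A14 and S100A11 was seen in FPKM. Per kilobase of merged exons they had 198 ± 1.40 and 88.9 ± 10.3 CPM in S55A. They had 176 ± 17.3 and 74.3 ± 2.23 CPM in WT-2 (SD, n = 3 each).

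**Figure D3:**
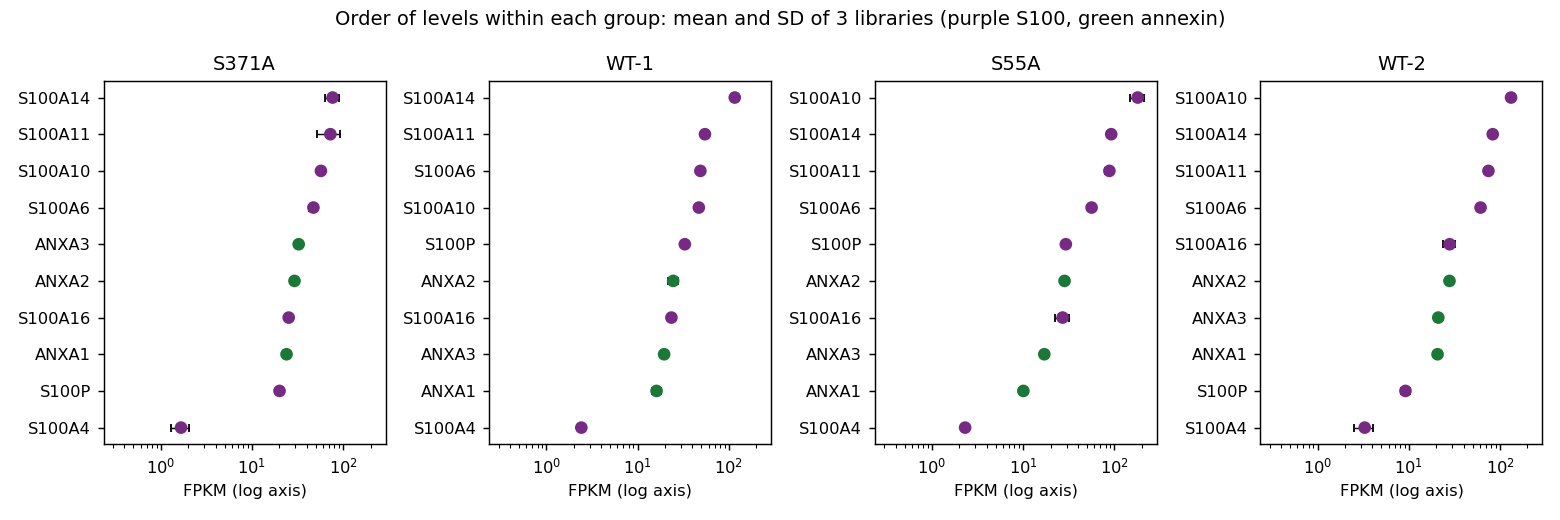
Members ordered by FPKM within each group. The horizontal log axes show FPKM, dots are means and bars SD of 3 libraries, purple for S100 genes and green for annexins. S100A14 leads in S371A (76.6) and WT-1 (116) and S100A10 in S55A (180) and WT-2 (132), with S100A4 last throughout.

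Of the other 13 S100 genes, 2 had enough counts to be tested, S100A2 and S100A13. In edgeR's test 0 of them were called in either experiment, and 0 had an unadjusted p under 0.05. DESeq2 called 0 of them as well. S100A13 had 8.48 ± 1.81 CPM in S371A and 9.15 ± 1.11 CPM in WT-1, and 8.79 ± 1.66 CPM in S55A and 8.38 ± 0.294 CPM in WT-2 (SD, n = 3 each).

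Of the other 10 annexin genes, 7 were tested. In S371A, 1 was called, ANXA6, lower at 156 ± 3.97 CPM against 183 ± 0.710 CPM in WT-1, a log2 fold change of -0.23 ± 0.04 with an adjusted p of 0.0130 in edgeR. ANXA6 codes for an annexin with a duplicated core; its call was lost without WT-1 replicate 3, at an adjusted p of 0.0502. In S55A, 3 were called and all were higher. ANXA4, an annexin of secretory epithelia, had 77.3 ± 1.53 CPM in S55A and 60.5 ± 0.641 CPM in WT-2 (0.35 ± 0.06, adjusted p 0.00688). ANXA9, an atypical family member, had 15.7 ± 1.71 CPM in S55A and 10.8 ± 1.32 CPM in WT-2 (0.54 ± 0.14, adjusted p 0.0309). ANXA11, which tethers RNA granules to lysosomes, had 166 ± 20.6 CPM in S55A and 123 ± 5.08 CPM in WT-2 (0.43 ± 0.09, adjusted p 0.0174). The count fell to 1 when S55A replicate 1 or 2, or WT-2 replicate 1 or 2, was left out. The ANXA11 call was lost with limma on FPKM with a pseudocount of 1 (adjusted p 0.0508). The median over the 7 was -0.00 in S371A and 0.20 in S55A.

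The ANXA4 and ANXA9 effects also differed between the experiments. The S371A effect minus the S55A effect was -0.36 ± 0.10 for ANXA4 (adjusted p 0.0372) and -0.82 ± 0.15 for ANXA9 (adjusted p 0.00554), in a fit where 12.5% of 16666 genes were called (6.43% higher and 6.1% lower). ANXA9 was lower than the WT-1 mean in 3 of 3 S371A libraries and higher than the WT-2 mean in 3 of 3 S55A libraries, the order seen for S100P and the reverse of that for ANXA1 and ANXA3.

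Several receptors of these proteins were scarce. TLR4, FPR2 and FPR3 had 0 counts in all 12 libraries, FPR1 reached at most 0.29 CPM, and AGER, the gene of RAGE, lay between 1.91 and 4.62 CPM. BSG, the gene of the receptor basigin, was abundant and had 385 ± 16.9 CPM in S371A and 500 ± 25.9 CPM in WT-1, a log2 fold change of -0.38 ± 0.05 with an adjusted p of 0.00736. Its effect differed between the experiments by -0.44 ± 0.12 (adjusted p 0.0305).

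Among partners inside the cell, 3 passed the test as higher in both mutants, MYH9, EZR and DLC1. MYH9, the non-muscle myosin heavy chain that S100A4 binds, had 1035 ± 47.8 CPM in S371A and 785 ± 16.3 CPM in WT-1 (0.40 ± 0.05, adjusted p 0.00337). It had 959 ± 93.0 CPM in S55A and 698 ± 38.5 CPM in WT-2 (0.46 ± 0.08, adjusted p 0.00840). EZR, the gene of ezrin, which S100P binds, was higher by 0.25 ± 0.05 in S371A (adjusted p 0.0180) and 0.35 ± 0.06 in S55A (adjusted p 0.00576); its S371A call was lost without any 1 of the WT-1 libraries (adjusted p 0.0595 to 0.0683). DLC1, whose product binds S100A10, was higher by 0.47 ± 0.10 and 0.58 ± 0.17 (adjusted p 0.0281 and 0.0493). These DLC1 calls were lost with DESeq2 (adjusted p 0.0565 and 0.0574), on FPKM (0.204 to 0.255) and without any library but S371A replicate 2 in the first experiment and WT-2 replicate 1 in the second.

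Other partners passed the test in S55A. MYH14, a second myosin heavy chain, was higher at 110 ± 8.97 CPM against 78.1 ± 5.52 CPM in WT-2 (0.50 ± 0.08, adjusted p 0.00652), and AHNAK was higher by 0.23 ± 0.05 (adjusted p 0.0270). The AHNAK call was lost without any library but S55A replicate 3 (adjusted p 0.0549 to 0.0971). The S100A6 binder CACYBP was lower, at 64.5 ± 4.06 CPM in S55A against 86.5 ± 3.65 CPM in WT-2 (-0.42 ± 0.07, adjusted p 0.00693), as was SUGT1, a co-chaperone and S100A6 binder (-0.29 ± 0.06, adjusted p 0.0205), whose call was lost without any library but S55A replicate 3 (adjusted p 0.0562 to 0.0796). In all, 3 of the 18 tested receptors and partners were higher and 1 lower in S371A, and 5 were higher and 2 lower in S55A, beside 12.6% and 16% of all tested genes called; the medians were 0.01 and 0.14. The counts were 2 without any 1 of the WT-1 libraries, and 4 without S55A replicate 1 or 2 or WT-2 replicate 2 or 3. With limma on FPKM, the AHNAK and SUGT1 calls in S55A were lost too (adjusted p 0.0502 to 0.0614).

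Further calcium-dependent proteins were read beside the members: EF-hand sensors such as calmodulin and the calpains, and membrane binders with C2 domains such as copines, ferlins and synaptotagmin-like proteins. Of 29 tested in S371A, 2 rose and 5 fell, and of 28 tested in S55A, 5 rose and 1 fell. Over all tested genes 7.05% were called higher and 5.53% lower in S371A, and 8.97% and 7.06% in S55A. MYOF, a ferlin of membrane repair, rose in both, to 431 ± 8.64 CPM in S371A against 335 ± 6.16 CPM in WT-1 (0.36 ± 0.04, adjusted p 0.00243), and to 398 ± 19.6 CPM in S55A against 255 ± 9.18 CPM in WT-2 (0.64 ± 0.06, adjusted p 0.000867). SYTL2, which acts in vesicle docking, rose by 0.74 ± 0.09 and 0.92 ± 0.14 (adjusted p 0.00403 and 0.00515). Both SYTL2 calls were lost with limma on FPKM (adjusted p 0.0790 and 0.0816 in S371A, 0.0549 and 0.0620 in S55A).

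CPNE7, a copine, passed the test as lower in both mutants, at 8.58 ± 1.52 CPM in S371A against 12.5 ± 0.349 CPM in WT-1 (-0.54 ± 0.14, adjusted p 0.0444) and at 6.18 ± 0.196 CPM in S55A against 14.2 ± 0.774 CPM in WT-2 (-1.20 ± 0.11, adjusted p 0.000844). The S371A call of CPNE7 was lost on FPKM (adjusted p 0.0878 and 0.0978) and without any library but S371A replicate 1 (0.0755 to 0.122). FER1L6, another ferlin, had 7.63 ± 2.10 CPM in S55A and 0.857 ± 0.299 CPM in WT-2 (3.13 ± 0.31, adjusted p 0.000934). ESYT1, a tether between the endoplasmic reticulum and the plasma membrane, fell by 0.34 on the log2 scale in S371A (adjusted p 0.00454), CPNE3 by 0.20 (adjusted p 0.0150) and SYT7, a calcium sensor of lysosome exocytosis, by 0.68 (adjusted p 0.0231). The CPNE3 call was lost without WT-1 replicate 1 or 3 (adjusted p 0.0580 and 0.0566), and that of SYT7 without any library but S371A replicate 2 (0.0552 to 0.0758). The SYT7 call was also lost with limma on FPKM (adjusted p 0.0752 and 0.0747). The protease genes CAPN1 and CAPN2 rose in S55A by 0.41 ± 0.09 and 0.22 ± 0.05 (adjusted p 0.0189 and 0.0240); the first call was lost without S55A replicate 1 or 2 (adjusted p 0.0620 and 0.0667) and the second without S55A replicate 1 or 2 or WT-2 replicate 1 or 3 (0.0696 to 0.0744). With limma on FPKM, the CAPN1 and CAPN2 calls were lost too (adjusted p 0.0527 to 0.0580). The S371A count fell to 4 without S371A replicate 3, WT-1 replicate 1 or WT-1 replicate 3, and the S55A count to 4 without S55A replicate 2.

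Genes outside these lists were ranked by how closely they followed the members with the widest and the narrowest range of group means, among 11376 genes with at least 5 CPM on average, as the root mean square difference of centred log2 CPM over 12 libraries. Nearest to S100A10 were SUMO3 (0.180), RNF187 (0.191) and HSPA14 (0.216), which likewise were higher in the second experiment; the symbol HSPA14 is carried by 2 rows of the first table, and the value is that of ENSG00000187522. SUMO3 had 139 ± 10.7 CPM in S55A and 129 ± 4.77 in WT-2, against 45.1 ± 1.07 in S371A and 43.3 ± 5.17 in WT-1. Nearest to ANXA2, whose group means spanned 0.30, were CKAP5 (0.0815), ANK3 (0.0892) and PREP (0.0902).

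**Figure D4:**
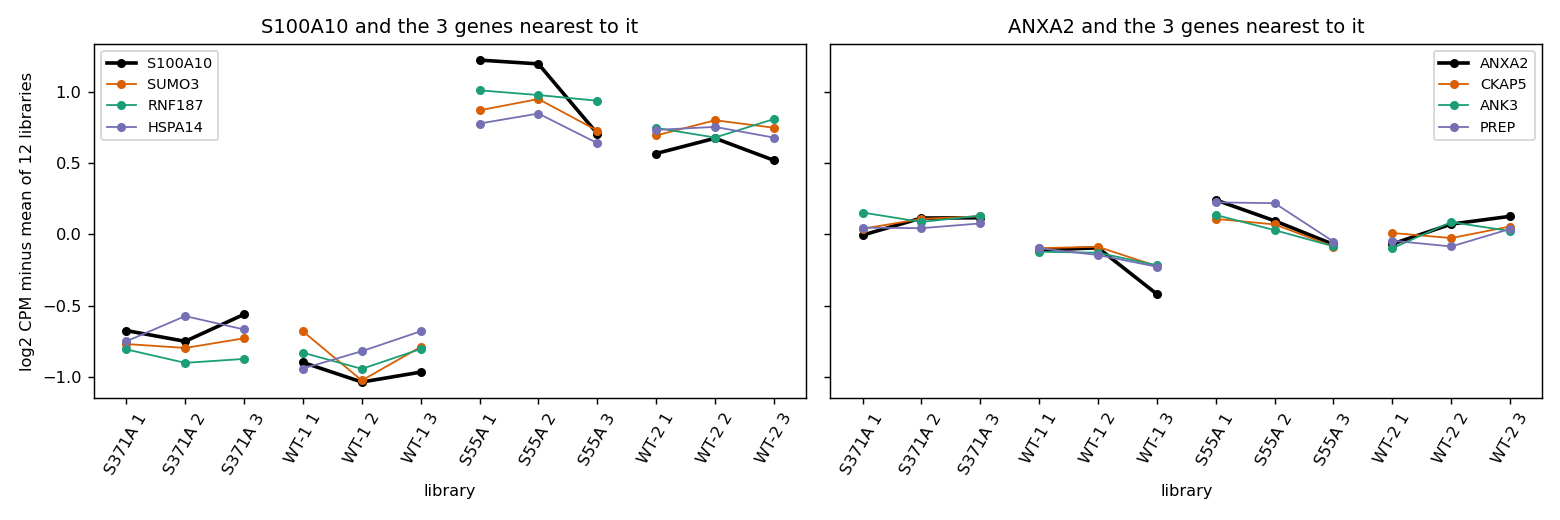
Centred log2 CPM of S100A10 (left) and ANXA2 (right), each with the 3 genes nearest to it, over the 12 libraries. Black lines are the members; the vertical axis is log2 CPM minus the gene's mean over the libraries. S100A10, SUMO3, RNF187 and HSPA14 lie above 0 in S55A and WT-2 and below 0 in S371A and WT-1.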

How the data were processed

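Per the submitters' processing notes, CASAVA, HISAT2 2.0.4, StringTie 1.3.0 and edgeR were used, with builds GRCh38 and mm10; which tool did what, and any use of strand, are not stated. The authors deposited raw counts and FPKM per gene in 2 tables, 1 per experiment. Columns were matched to samples by group name and trailing number, and the wild-type columns of a table to the wild type numbered with its mutant. R 4.3.3 and edgeR 4.0.16 were applied to the counts (filterByExpr, TMM, robust quasi-likelihood F test, Benjamini-Hochberg at 0.05) over the 6 libraries of a table, after tests on simulated data; the biological coefficient of variation was 13.5% and 13.8%. The difference of effects used all 12. Alternatives used RLE or upper-quartile factors, DESeq2 1.42.0, other filters, a replicate block, limma 3.58.1 on log2(FPKM + 1 or 0.1), and each library left out. The merged-exon length was added after seeing the data. The members and lists were chosen with earlier results of these data known. Named were all members, called S100 and annexin genes, the 5 called genes of smallest p per other list, and the 3 nearest genes; genes beyond these were chosen after their values were seen.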

Additional observations from a re-analysis of the deposited data

Results flagged for a closer look

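For 4 members every mutant library lay on 1 side of its wild-type mean in S371A and on the other in S55A. The difference was not tested, and the share of all genes with this order was not computed. For S100A14 the S55A log2 fold change of 0.17 ± 0.08 did not pass the threshold. The S371A effect minus the S55A effect (log2) was -2.39 for S100P, -0.75 for S100A14, 1.61 for ANXA1 and 1.04 for ANXA3.

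A difference between the experiments passed edgeR's test for 13 genes of the lists around the members, in a fit where 12.5% of 16666 genes were called. These were 2 of 7 tested other annexins, 5 of 18 partners and 7 of 29 sensors and C2 genes. DYSF is in both of the last lists, and 0 of 2 other S100 genes passed. Mutant and experiment cannot be told apart in this difference, and without WT-1 replicate 2 it passed for 8. It was -0.36 for ANXA4 (adjusted p 0.0372) and -0.82 for ANXA9 (adjusted p 0.00554). Among partners it was -0.44 for BSG, 0.54 for CACYBP, 0.33 for SUGT1, -0.53 for MYH14 and -3.19 for DYSF. DYSF had 0.230 ± 0.201 CPM in S371A and 1.10 ± 0.243 CPM in WT-1, and 0.735 ± 0.0817 CPM in S55A and 0.372 ± 0.243 CPM in WT-2 (SD, n = 3 each), close to the limit of 3 counts. Among calcium sensors and C2-domain proteins it was -0.27 for CAPN2, 0.66 for CPNE7, -0.28 for MYOF, -2.45 for FER1L6, -0.46 for ESYT1 and -1.54 for SYTL5. MYOF and FER1L6 were higher and CPNE7 lower than in wild type in both experiments, so their effects differed in size and not in direction.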

How the results depend on the processing

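No called member's log2 fold change turned its sign. S100A6 in S371A and S100A16 and ANXA2 in S55A, none of them called, took both signs. Of 284 member values under the alternatives, 283 moved by less than the spread between replicates. The other was ANXA3 in S371A, at 0.71 on FPKM with a pseudocount of 1. Leaving out 1 of 3 libraries can hardly move a value by more than that spread, so those fits do not test stability. S100A11 in S371A, counted among the 283, fell from 0.42 to 0.16 without S371A replicate 2. S100A10 in S371A was not called with the replicate block or on FPKM with either pseudocount. S100A14 in S371A was not called with the replicate block or with no filter, and ANXA3 in S55A not with the replicate block. S100A10 in S55A was called with DESeq2 and with the replicate block. Same-numbered libraries did not deviate together over all tested genes (correlations between -0.0851 and -0.00289), and the main fits used no pairing. Correlations over all genes cannot exclude a pairing that touches few genes. With the replicate block, 3 members were called in S371A, 0 other annexins, 2 partners, 3 sensors and C2 genes and 784 genes in all. That block gave 1632 called genes in S55A, and 6 list genes for the difference. On FPKM with pseudocounts of 1 and 0.1, the S371A counts were 3 and 3 for sensors and C2 genes and 1177 and 1202 for all genes, and the S55A counts 4 and 4 for partners, 3 and 3 for sensors and C2 genes, and 1552 and 1527 for all genes. Other annexins called in S371A were 2 with upper-quartile factors and 2 on FPKM with 0.1. Leaving out each library gave 3 to 4 members in S371A and 2 to 5 in S55A, 0 to 1 and 1 to 3 other annexins, 2 to 4 and 4 to 6 partners, 4 to 6 and 4 to 8 sensors and C2 genes, 917 to 1576 and 1344 to 2491 genes in all, and 8 to 17 list genes for the difference. Among the members, depth limits S100A4 most, at 2.62 to 8.05 CPM.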

Other observations

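In WT-2 replicate 2, S100A8 had 62 counts, S100A9 33, S100A7 18 and S100A12 4. In the other 11 libraries S100A7 and S100A12 had 0 counts, S100A8 at most 2 and S100A9 at most 10. Without this library S100A4 in S55A passed the threshold and no other member's call changed.

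The fibroblast marker list summed to 22.7 to 23.8 CPM in S371A and 37.8 to 40.4 CPM in WT-1, with PDGFRB at 10.2 ± 1.19 CPM in S371A and 21.7 ± 1.44 CPM in WT-1 (SD, n = 3 each; log2 fold change -1.08, edgeR adjusted p 0.00221). In S371A and WT-1 nearly all of the sum came from PDGFRB and ACTA2, and ACTA2 was also lower in S371A but not called. COL1A2, COL3A1, DCN, LUM and PDGFRA had no counts in these groups, so the sums do not measure the list as a whole. In S55A replicate 2 the list summed to 43.1 CPM, against 27.3 and 27.6 CPM in the other S55A libraries.

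Of 8 ductal carcinoma markers tested in S55A, 4 were called higher, KRT8, AGR2, KRT18 and MUC1, beside 16% of all tested genes called. Of 11 tested in S371A, KRT18 and EPCAM were called higher and CEACAM5 lower, beside 12.6% of all tested genes called. KRT8 had 1938 ± 61.7 CPM in S55A and 1152 ± 59.2 CPM in WT-2 (log2 fold change 0.75, adjusted p 0.000440), and AGR2 had 539 ± 37.9 CPM in S55A and 324 ± 9.06 CPM in WT-2 (0.73, adjusted p 0.000714).

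Of 71 listed genes outside the S100 family between S100A10 and S100A1 on chromosome 1, a stretch chosen after values were seen, 5 were tested in S371A and 3 in S55A. SPRR3, SPRR2D and PRR9 were called higher in S371A, and TCHH and FLG-AS1 lower in S55A. Over all tested genes 12.6% were called in S371A and 16% in S55A. SPRR3 and PRR9 averaged 0.523 and 0.515 CPM in WT-1, close to the limit of 3 counts. With so few genes tested, nothing is read from these counts about the region.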
